A study of Mus musculus with 9 samples.

Results

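The BCL2 family decides at the outer membrane of mitochondria whether a cell under stress lives or dies, and 10 of its genes are described here in sorted mouse bone marrow cells. The members were every entry of the deposited expression table named Bcl2, Bcl2l1, Bcl2l2, Mcl1, Bax, Bak1, Bid, Bad, Bcl2l11 or Bmf, with the transcripts of a gene summed. They made up 10 of 16537 genes and 13 of 21388 transcripts, and all 10 passed the filter on low counts that left 12837 genes for testing.

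Members of the family act in 3 roles. Pro-survival proteins (BCL2, BCL-XL from Bcl2l1, BCL-W from Bcl2l2, and MCL1) hold the effectors BAX and BAK in check, and BH3-only proteins (BID, BAD, BIM from Bcl2l11, BMF) are the sensors of damage, growth factor loss or detachment that occupy the pro-survival proteins or engage the effectors directly. Freed effectors form pores that release cytochrome c, which starts the caspase cascade. In blood formation MCL1 is needed by stem and progenitor cells and by neutrophil precursors, BCL-XL by late red cell precursors and platelets, and BCL2 by mature lymphocytes, while BIM limits the number of white cells.

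All libraries came from FVB/NJ mice, an inbred strain, and from sorted bone marrow cells. The leukemic groups were leukemic progenitors (LP) of the genotype PML-RAR, sampled in the phases that the labels call median and early. PML-RAR joins the PML protein to the retinoic acid receptor RARA and is the fusion that defines acute promyelocytic leukemia. The remaining group was wild-type hematopoietic progenitor cells (HPC) at postnatal day 42. Each group had 3 libraries. The sources used here do not give the age of the LP mice, the promoter behind PML-RAR, the sorting markers or any pooling of animals. The labels do not state that each library is a different mouse. P-values therefore reflect only the variation among these libraries, which may be technical. In bulk RNA, fewer cells of a type and less RNA per cell cannot be told apart.

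Depth was 20.6 to 28.4 M recovered fragments per library. On the log2 scale, libraries of a group correlated at 0.990 to 0.995 across genes, and LP with HPC libraries at 0.776 to 0.806. HPC 3 stood a little apart, with a slope of level on transcript length of -0.11, against -0.057 to 0.056 in the other 8 libraries. Of 10 progenitor markers, 9 were called lower in median LP than in HPC, and in early LP 9 were lower and 1 higher. Over all tested genes, 37.7% were called lower in median LP and 37.9% in early LP. Cd34 marks stem and early progenitor cells. It averaged 1.44 CPM (counts per 1 M counts) in median LP and 3.49 CPM in early LP, against 272 CPM in HPC. Its RNA was nearly absent from the LP libraries. Kit, the stem cell factor receptor, averaged 247 CPM in median LP and 251 CPM in early LP, against 437 CPM in HPC. The 8 promyelocyte granule markers, led by Mpo, summed to 30785 to 32984 CPM in median LP and 37267 to 42644 CPM in early LP, against 13444 to 15236 CPM in HPC. Of these 8, 6 were called higher and 1 lower in each LP group. Markers of the erythroid, megakaryocyte, lymphoid and mast cell lineages were mostly lower. The 12 erythroid markers summed to 316 to 410 CPM in median LP and 194 to 210 CPM in early LP, against 3678 to 4011 CPM in HPC, with 9 of 11 tested called lower and 2 higher in median LP, and 10 lower and 0 higher in early LP. The 8 megakaryocyte markers summed to 8.90 to 12 CPM, 9.93 to 13.0 CPM and 136 to 172 CPM in the same order, with 6 of 7 lower in both LP groups and Gp6 at 0 in early LP. The 12 lymphoid markers summed to 2.94 to 5.10 CPM, 1.42 to 2.38 CPM and 68.1 to 89.8 CPM, with 3 of 5 tested lower and 1 higher in median LP, and 4 lower and 0 higher in early LP. Pax5, Rag1 and Cd3g were at 0 in all early LP libraries and Pax5 and Cd3e in all HPC libraries. The 8 basophil and mast cell markers summed to 32.0 to 33.6 CPM, 34.7 to 42.1 CPM and 115 to 132 CPM, with 5 lower in median LP, 6 lower in early LP, 1 higher in each, and Cma1 at 0 in median LP. The 10 late neutrophil markers summed to 11849 to 13098 CPM, 9687 to 9878 CPM and 2846 to 5188 CPM, with 3 higher in each LP group and 5 and 2 lower. The part of these marker differences in the results that follow was not tested.

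Against HPC, both LP groups showed the same outline: Bcl2 was lower, Bcl2l2, Bcl2l1, Bax and Bmf were higher, Bid was lower, and Bak1 was not called. In median LP, Mcl1 and Bcl2l11 were also higher and Bad lower. Of the 10 members, 9 were called in median LP against HPC (6 higher, 3 lower), where 73.8% of all tested genes were called, 36.0% higher and 37.7% lower. Of the same 10, 6 were called in early LP against HPC (4 higher, 2 lower), beside 73.2% of all genes, 35.3% higher and 37.9% lower. Libraries of the groups compared did not overlap for 9 of 10 members in median LP and 7 of 10 in early LP, beside 75.7% and 74.7% of all genes. Changes of 2-fold or more were called in 3 members in median LP (Bcl2, Bcl2l2, Bax) and in 4 in early LP (with Bmf), beside 30.7% and 29.8% of all genes. These shares lie near the background, so the number of calls is no result about the family, and what can be described is the direction and size in each gene. A call is an adjusted p under 0.05 in edgeR's quasi-likelihood test with Benjamini-Hochberg adjustment over all tested genes. The median log2 fold change of the members was 0.42 in median LP and 0.09 in early LP against HPC, beside -0.04 over all genes in both. The comparisons of the LP groups with HPC share the 3 HPC libraries and are not independent of each other.

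**Figure D1:**
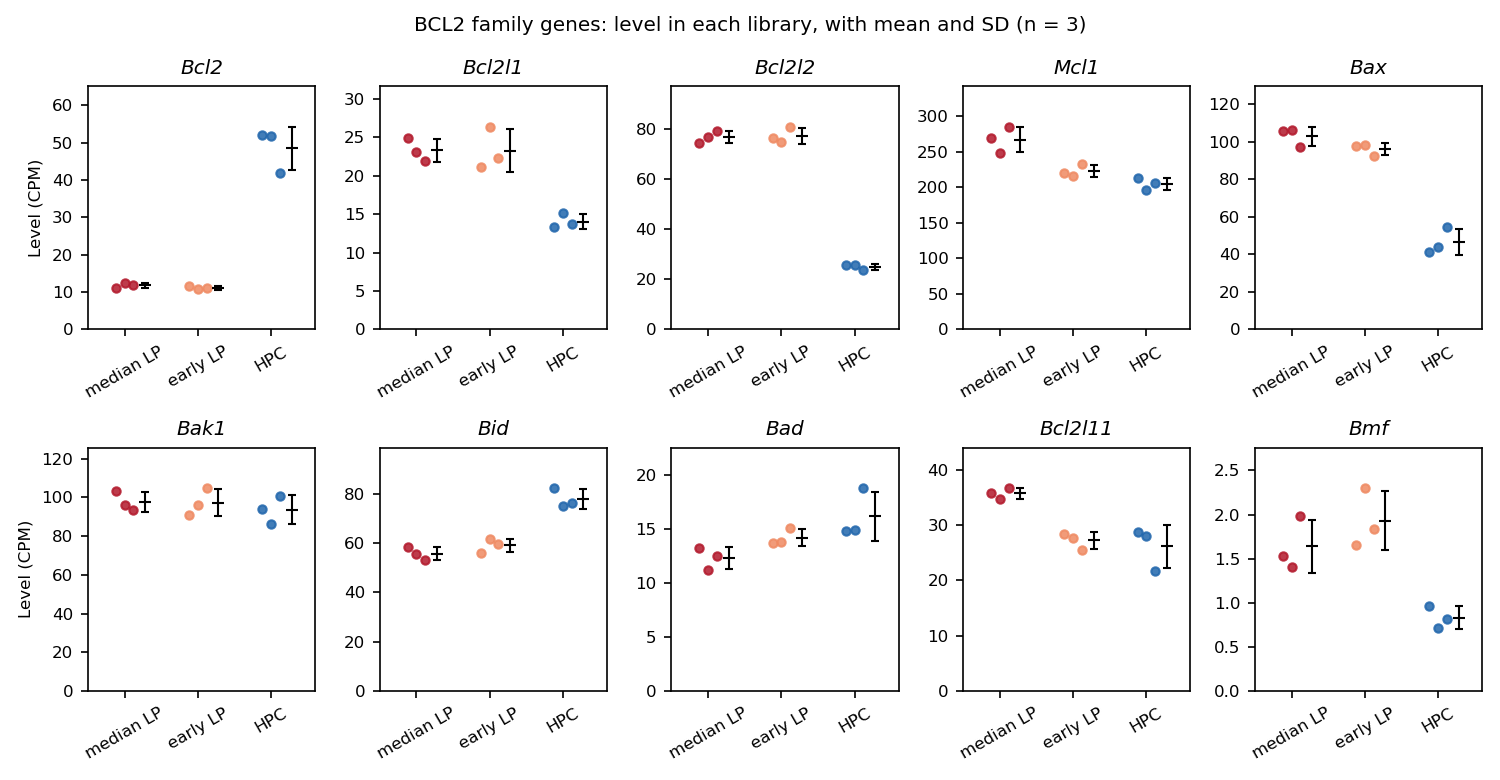
Level of each gene in CPM (vertical axes, each starting at 0) in the 3 median LP, 3 early LP and 3 HPC libraries; points are libraries, and the bar beside them is the mean with its SD. The LP libraries lie apart from HPC for Bcl2, Bcl2l1, Bcl2l2, Mcl1, Bax, Bid and Bmf, and Bak1 overlaps in all groups.

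Among the pro-survival genes, Bcl2 (GRCm38/mm10 chr1:106538179-106714290), the founding member and the target of BH3-mimetic drugs, was lower in LP, and none of the other 3 was called lower. Bcl2 had 11.0, 12.4 and 11.9 CPM in median LP and 11.7, 10.7 and 11.0 CPM in early LP, against 52.0, 51.7 and 41.8 CPM in HPC. The 6 LP libraries sat close together and far below every HPC library. Bcl2 fell by 2.04 on the log2 scale in median LP (SE 0.10, adjusted p = 3.73e-09) and by 2.12 in early LP (SE 0.10, adjusted p = 2.89e-09), which is 4.11-fold and 4.34-fold lower than in HPC. With limma on log2(FPKM + 1), whose pseudocount is large beside this gene's level, Bcl2 fell by 1.35 in early LP. The edgeR change in size exceeded that of 82.9% of genes in median LP and 83.9% in early LP.

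The start region of Bcl2 is shown because it is the member with the largest difference and has a high GC content. The window holds the 250 bases before the RefSeq start on GRCm38.p6, chr1:106714291-106714540 on the minus strand, and capitals mark the letters of GC boxes, GGGCGG on either strand.

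Bcl2: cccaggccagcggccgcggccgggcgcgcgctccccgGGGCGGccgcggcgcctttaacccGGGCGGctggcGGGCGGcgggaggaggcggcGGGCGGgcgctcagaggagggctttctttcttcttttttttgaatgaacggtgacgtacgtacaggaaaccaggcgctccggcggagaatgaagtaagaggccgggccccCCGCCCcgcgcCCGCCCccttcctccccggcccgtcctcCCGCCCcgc

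Its GC content was 74.8%, against a median of 52.4% over the 32536 windows of all genes. High GC was not particular to Bcl2 among the members. The Bcl2l11 windows had 72% and 73.2% and the Bcl2l2 window 66%, while those of Bcl2l1 had 47.6 to 53.2%. The Bcl2 window held 7 GC boxes, and 0.415% of all windows, whatever their GC content, held at least as many. The motif is made of G and C only, so this share is not separate from the window's high GC content. A match is a description of letters and not a binding site.

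Bcl2 has a pair of transcripts in the table, and their values differed. The long one, of 7206 bases, had 1.10 ± 0.0357 FPKM (fragments per kilobase and per 1 M sequenced) in median LP and 1.01 ± 0.0290 FPKM in early LP, against 5.38 ± 0.407 FPKM in HPC (SD, n = 3 each). In a fit over transcripts added after these values were seen, where 60.9% and 60.8% of transcripts were called, the long transcript fell by 2.19 in median LP (adjusted p = 2.89e-07, edgeR) and by 2.35 in early LP (adjusted p = 2.16e-07, edgeR). The short one, of 2517 bases, averaged 0.581 ± 0.0729 FPKM in median LP and 0.761 ± 0.164 FPKM in early LP, against 0.688 ± 0.237 FPKM in HPC, and was called in neither (log2 fold change -0.14 and 0.22, adjusted p = 0.735 and 0.597, edgeR). The groups overlapped for the short transcript and not for the long one. Such values rest on how the authors' program divided reads that both transcripts share.

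**Figure D2:**
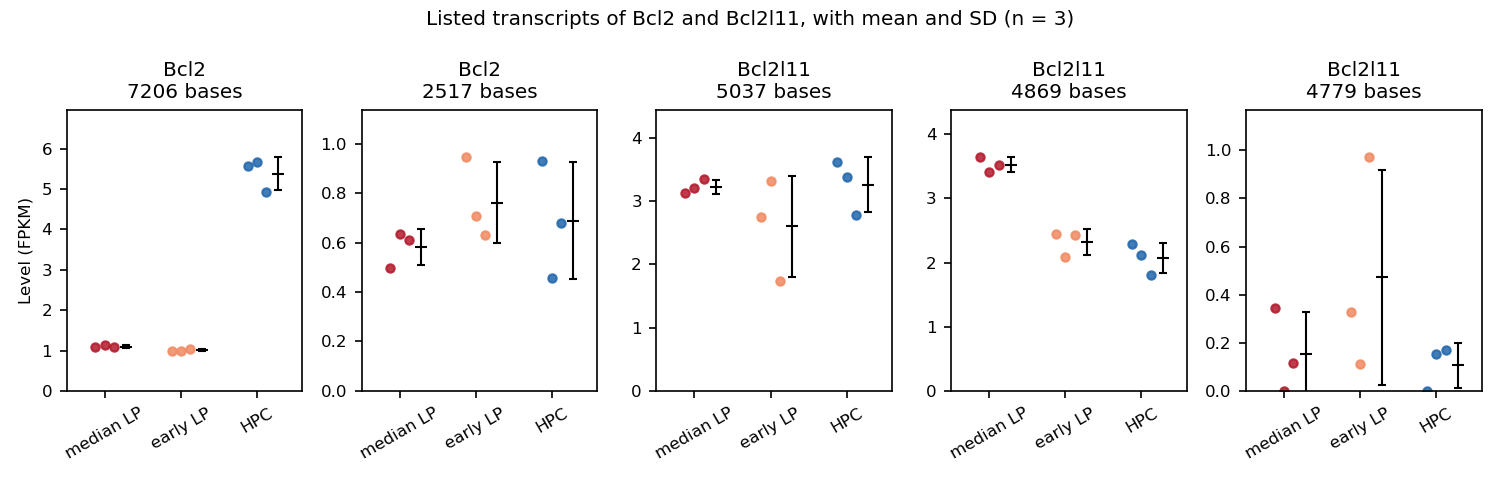
FPKM (vertical axes) of each listed transcript of Bcl2 and Bcl2l11 in median LP, early LP and HPC; points are libraries, bars are the mean with its SD. The 7206-base Bcl2 transcript and the 4869-base Bcl2l11 transcript separate groups that the other transcripts leave overlapping.

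Bcl2l2 (chr14:54883425-54888234), which encodes BCL-W, had the largest rise among the members. It had 74.2, 76.6 and 79.0 CPM in median LP and 76.2, 74.7 and 80.8 CPM in early LP, against 25.8, 25.6 and 23.5 CPM in HPC. All LP libraries were far above all HPC libraries, and the 2 LP groups overlapped. The log2 fold change was 1.62 in median LP (SE 0.06, adjusted p = 6.54e-10) and 1.63 in early LP (SE 0.06, adjusted p = 6.53e-10), or 3.07-fold and 3.09-fold. The window before its start, chr14:54883175-54883424 on the plus strand of GRCm38.p6, is shown for comparison with that of Bcl2. Capitals mark AGGTCA, the core hexamer bound by retinoic acid receptors, and 1 GC box, each on either strand and not overlapping.

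Bcl2l2: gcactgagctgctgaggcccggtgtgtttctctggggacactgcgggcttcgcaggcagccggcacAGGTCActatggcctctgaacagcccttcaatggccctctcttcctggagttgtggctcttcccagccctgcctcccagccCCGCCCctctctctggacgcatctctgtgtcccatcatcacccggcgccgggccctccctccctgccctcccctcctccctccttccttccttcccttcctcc

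The AGGTCA match runs from base -184 to -179 before the start, and 14.0% of all windows hold that hexamer. Among the 16 windows of the 10 members, it was also found in 1 window of Bcl2l1 and 1 of Bmf, so 3 of 16 held it.

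Bcl2l1 (chr2:152780668-152831682), which encodes BCL-XL, had 24.9, 23.1 and 21.8 CPM in median LP and 21.1, 26.4 and 22.2 CPM in early LP, against 13.3, 15.1 and 13.7 CPM in HPC. Every LP library exceeded every HPC library. The log2 fold change was 0.73 in both comparisons (SE 0.10; adjusted p = 4.31e-05 in median LP and 4.50e-05 in early LP).

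Mcl1 (chr3:95658721-95663178), whose protein turns over quickly and is the main guard of myeloid precursors, was the most abundant of the pro-survival genes in all groups. It had 269, 248 and 285 CPM in median LP and 221, 216 and 233 CPM in early LP, against 213, 197 and 206 CPM in HPC. The 3 groups did not overlap and stood in that order, but Mcl1 was not called between the phases (adjusted p = 0.0854, edgeR). Mcl1 was higher in median LP than in HPC by 0.38 on the log2 scale (SE 0.07, adjusted p = 0.000387, edgeR). In early LP the difference from HPC was 0.12, with a 95% interval of -0.03 to 0.28, and was not called (adjusted p = 0.140, edgeR).

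Per length, the 4 pro-survival genes together reached 98.1 ± 5.52 FPKM in median LP and 88.9 ± 3.65 FPKM in early LP, against 76.1 ± 3.23 FPKM in HPC (SD, n = 3 each). Mcl1 made up 71.0% of that sum in median LP and 67.1% in early LP, against 76.4% in HPC. The share of Bcl2l2 was 18.2% in median LP and 20.7% in early LP, against 8.27% in HPC. The share of Bcl2 was 1.72% and 2.0% in the same LP groups, against 7.99% in HPC. Bcl2l1 held 9.08%, 10.1% and 7.39%. In HPC the levels of Bcl2, Bcl2l1 and Bcl2l2 lay close together, at 6.07, 5.61 and 6.28 FPKM, while in LP they were spread out, with Bcl2 lowest at 1.68 FPKM in median LP and 1.77 FPKM in early LP. These shares of messenger RNA are descriptions with no test.

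**Figure D3:**
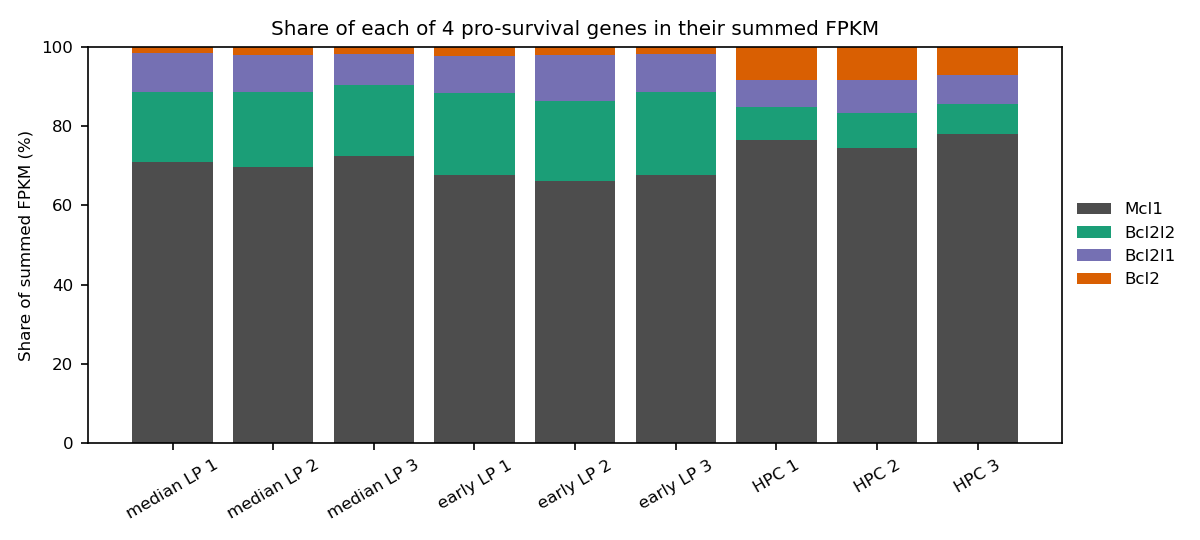
Share (%) of Mcl1, Bcl2l2, Bcl2l1 and Bcl2 in their summed FPKM, 1 stacked bar per library of median LP, early LP and HPC. Bcl2 takes 1.55 to 2.26% in the 6 LP libraries and 7.14 to 8.45% in HPC, and Bcl2l2 takes 17.8 to 21.2% in LP and 7.78 to 8.74% in HPC.

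The effectors parted. Bax (chr7:45461695-45466898), which moves from the cytosol to mitochondria, had 106, 106 and 96.9 CPM in median LP and 97.6, 98.0 and 92.4 CPM in early LP, against 41.4, 44.0 and 54.3 CPM in HPC. The LP libraries were all above the HPC libraries, of which HPC 3 was the highest. Bax was higher by 1.14 on the log2 scale in median LP (SE 0.09, adjusted p = 3.71e-07) and by 1.04 in early LP (SE 0.09, adjusted p = 8.51e-07). The Bax entry of the table carries 2 gene identifiers and the description of another gene, with the locus of Bax, and the Bax values are those of this entry. The window before its start, chr7:45466899-45467148 on the minus strand of GRCm38.p6, is given with 2 GC boxes and an E-box, CACGTG, in capitals.

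Bax: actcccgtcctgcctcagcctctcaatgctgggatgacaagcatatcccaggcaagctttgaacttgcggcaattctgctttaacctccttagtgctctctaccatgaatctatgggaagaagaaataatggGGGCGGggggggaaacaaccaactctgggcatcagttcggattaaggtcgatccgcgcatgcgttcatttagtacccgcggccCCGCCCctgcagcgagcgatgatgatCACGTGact

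The E-box lies at -9 to -4 before the start, and 6.04% of all windows hold it. GC content was 54%, close to the median window. Bak1 (chr17:27018035-27036378), the effector that resides at mitochondria, had 103, 95.9 and 93.6 CPM in median LP and 91.2, 96.1 and 105 CPM in early LP, against 94.1, 86.2 and 101 CPM in HPC. The 3 groups overlapped throughout. The log2 fold change of Bak1 was 0.06 in both comparisons, with 95% intervals of -0.11 to 0.23 in median LP and -0.12 to 0.23 in early LP (adjusted p = 0.505 and 0.539, edgeR). The table lists Bak1 at a locus shared with Ggnbp1. Per length, Bax was 2.70 times Bak1 in median LP and 2.59 times in early LP, against 1.28 times in HPC. In LP, Bax had the highest level of all 10 members, at 129 ± 12.4 FPKM in median LP and 124 ± 5.64 FPKM in early LP. In HPC its 61.1 ± 6.98 FPKM overlapped the 58.2 ± 3.71 FPKM of Mcl1.

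The BH3-only genes moved in both directions. Bid (chr6:120893119-120916820), which caspase-8 cleaves to link death receptors to mitochondria, had 58.3, 55.4 and 53.1 CPM in median LP and 56.1, 61.4 and 59.6 CPM in early LP, against 82.2, 74.9 and 76.0 CPM in HPC. All LP libraries were below all HPC libraries. Bid fell by 0.48 in median LP (SE 0.07, adjusted p = 3.30e-05) and by 0.40 in early LP (SE 0.07, adjusted p = 0.000165). Besides GC boxes, its promoter window held 1 match of the C/EBP motif TTGCNNAA, at -90 to -83, a motif found in 9.57% of all windows. Windows of Bmf, which was higher in LP, also held that motif.

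Bad (chr19:6938070-6951893), whose activity is switched off by growth factor signalling through phosphorylation, had 13.2, 11.2 and 12.5 CPM in median LP and 13.7, 13.8 and 15.1 CPM in early LP, against 14.8, 14.9 and 18.8 CPM in HPC. Median LP lay below HPC, while early LP overlapped it. Bad fell by 0.40 in median LP (SE 0.11, adjusted p = 0.00778), and in early LP the difference was -0.19 with an interval of -0.44 to 0.06 (adjusted p = 0.147, edgeR). Bad shares its listed locus with Gpr137.

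Bmf (chr2:118528757-118549678), linked to loss of attachment and the cytoskeleton, was the lowest member. It had 1.53, 1.41 and 1.98 CPM in median LP and 1.65, 2.30 and 1.83 CPM in early LP, against 0.965, 0.712 and 0.819 CPM in HPC. The LP libraries were above all HPC libraries, on 17.1 to 23.4 estimated counts per HPC library. The log2 fold change was 0.97 in median LP (SE 0.24, adjusted p = 0.00335) and 1.21 in early LP (SE 0.24, adjusted p = 0.000646). With limma on log2(FPKM + 0.1) and no filter the differences were 0.58 and 0.79.

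Bcl2l11 (chr2:128126038-128162547), the gene of BIM, was called higher in median LP than in HPC and was not called between the phases. It had 35.8, 34.7 and 36.6 CPM in median LP and 28.4, 27.7 and 25.5 CPM in early LP, against 28.7, 27.9 and 21.6 CPM in HPC. Median LP lay above all other libraries, and early LP and HPC overlapped. Between the phases the adjusted p was 0.0703 (edgeR), and 26.1% of all genes had phases that did not overlap. The log2 fold change against HPC was 0.45 in median LP (SE 0.10, adjusted p = 0.00149) and 0.06 in early LP, with an interval of -0.16 to 0.28 (adjusted p = 0.609, edgeR).

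BIM is made in forms called EL, L and S, from longest to shortest, by alternative splicing. The stretches that tell them apart are shown because the transcripts differed between groups. The first is coding sequence present in the longest transcript only, GRCm38 chr2:128128757-128128924 on the plus strand, and holds sites that ERK phosphorylates to mark BIM-EL for destruction. The next, chr2:128128925-128129014, is in the longest and middle transcripts and holds the site that binds dynein light chain. Capitals mark in-frame codon pairs for serine followed by proline, the core of an ERK site.

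Longest only: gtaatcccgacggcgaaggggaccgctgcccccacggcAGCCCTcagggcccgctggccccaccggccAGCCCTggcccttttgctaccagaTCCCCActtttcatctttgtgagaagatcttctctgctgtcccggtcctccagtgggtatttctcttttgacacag
Longest and middle: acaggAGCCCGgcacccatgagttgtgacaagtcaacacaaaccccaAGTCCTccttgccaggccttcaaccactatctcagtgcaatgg

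The first stretch of 168 bases has 3 such pairs and the second, of 90 bases, has 2. The coding sequences of the 3 transcripts are 588, 420 and 330 bases long in GENCODE. The middle transcript, listed at 4869 bases, had 3.64, 3.42 and 3.51 FPKM in median LP and 2.44, 2.08 and 2.44 FPKM in early LP, against 2.28, 2.12 and 1.81 FPKM in HPC. Median LP was above all other libraries. In the fit over transcripts, this one was higher in median LP than in HPC by 0.88 (SE 0.13, adjusted p = 0.000375, edgeR), and in early LP the difference was 0.24 (adjusted p = 0.143, edgeR). Between the phases it differed by 0.64 and was not called (SE 0.13, adjusted p = 0.0875, edgeR), in a comparison that called 0.464% of transcripts. The longest transcript, listed at 5037 bases, averaged 3.23 ± 0.111 FPKM in median LP and 2.6 ± 0.798 FPKM in early LP, against 3.26 ± 0.437 FPKM in HPC. It was not called in median LP (0.10, adjusted p = 0.731, edgeR) or early LP (-0.25, adjusted p = 0.370, edgeR). When the gene was represented by its highest transcript alone, the Bcl2l11 difference in median LP was 0.09 and was no longer called (adjusted p = 0.703, edgeR). The middle transcript made up 51.0% of the gene's FPKM in median LP and 43.1% in early LP, against 38.1% in HPC, with early LP ranging from 37.7 to 47.3%. The shortest transcript was listed at 0 in median LP 2 and HPC 1 and reached 0.972 FPKM in early LP 3.

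Across roles, the summed level of the 4 BH3-only genes was 40.4 ± 3.12 FPKM in median LP and 42.0 ± 2.17 FPKM in early LP, against 52.7 ± 2.10 FPKM in HPC (SD, n = 3 each). The ratio of this sum to that of the 4 pro-survival genes was 0.412 ± 0.0251 in median LP and 0.473 ± 0.0173 in early LP, against 0.692 ± 0.00490 in HPC, and the 3 groups did not overlap. Bid was the most abundant of the 4, at 24.8 FPKM in median LP and 26.6 FPKM in early LP, against 35.7 FPKM in HPC. The order depended on which genes were counted. With the BH3-only genes Pmaip1 and Bbc3 added, a choice made after the values were seen, the sum was 68.0 ± 10.6 FPKM in median LP and 60.3 ± 2.34 FPKM in early LP, against 56.4 ± 2.6 FPKM in HPC. The ratio was then 0.694 ± 0.104 in median LP and 0.678 ± 0.00833 in early LP, against 0.740 ± 0.00435 in HPC, and median LP overlapped both other groups. With the pro-survival Bcl2a1 copies counted as well, it was 0.577 in both LP groups, against 0.722 in HPC. Effectors summed to 177 FPKM in median LP and 173 FPKM in early LP, against 109 FPKM in HPC, which is 1.81, 1.94 and 1.43 times the pro-survival sum. The ratio of Bax to Bcl2 was 77.4 ± 11.1 in median LP and 70.4 ± 6.31 in early LP, against 10.2 ± 1.95 in HPC. The ratio of Bcl2l11 to Mcl1, which encode a tightly binding pair of proteins, was 0.0994, 0.0906 and 0.0940 in median LP, early LP and HPC. HPC overlapped both LP groups, and median LP lay just above early LP. These ratios concern RNA and carry no test.

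Between the LP phases, no member was called. Of the 10 members, 0 passed edgeR's threshold in median LP against early LP, where edgeR called 2.48% of all genes, 1.48% higher and 0.997% lower. In the same fit, 2 had an unadjusted p under 0.05, beside 16.5% of all genes. DESeq2 called 2, beside 3.99% of the genes to which it gave an adjusted p. By both counts the 2 were Bcl2l11, at 0.39 on the log2 scale (SE 0.10, adjusted p = 0.0703), and Mcl1, at 0.26 (SE 0.07, adjusted p = 0.0854). Without HPC 3, which enters this comparison only through the filter, the scaling and the shared estimate of spread, both passed, with adjusted p = 0.00724 for Bcl2l11 and 0.0466 for Mcl1. DESeq2 gave adjusted p = 0.0232 for Bcl2l11 and 0.0173 for Mcl1. Bad joined them in having phases that did not overlap, so 3 of 10 members were apart, beside 26.1% of all genes. The interval of the difference was -0.15 to 0.12 for Bcl2l2, -0.22 to 0.22 for Bcl2l1, -0.15 to 0.31 for Bcl2 and -0.10 to 0.30 for Bax. It was widest for Bmf, the lowest member, at -0.71 to 0.24. A p above the threshold does not show that the phases were alike.

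**Figure D4:**
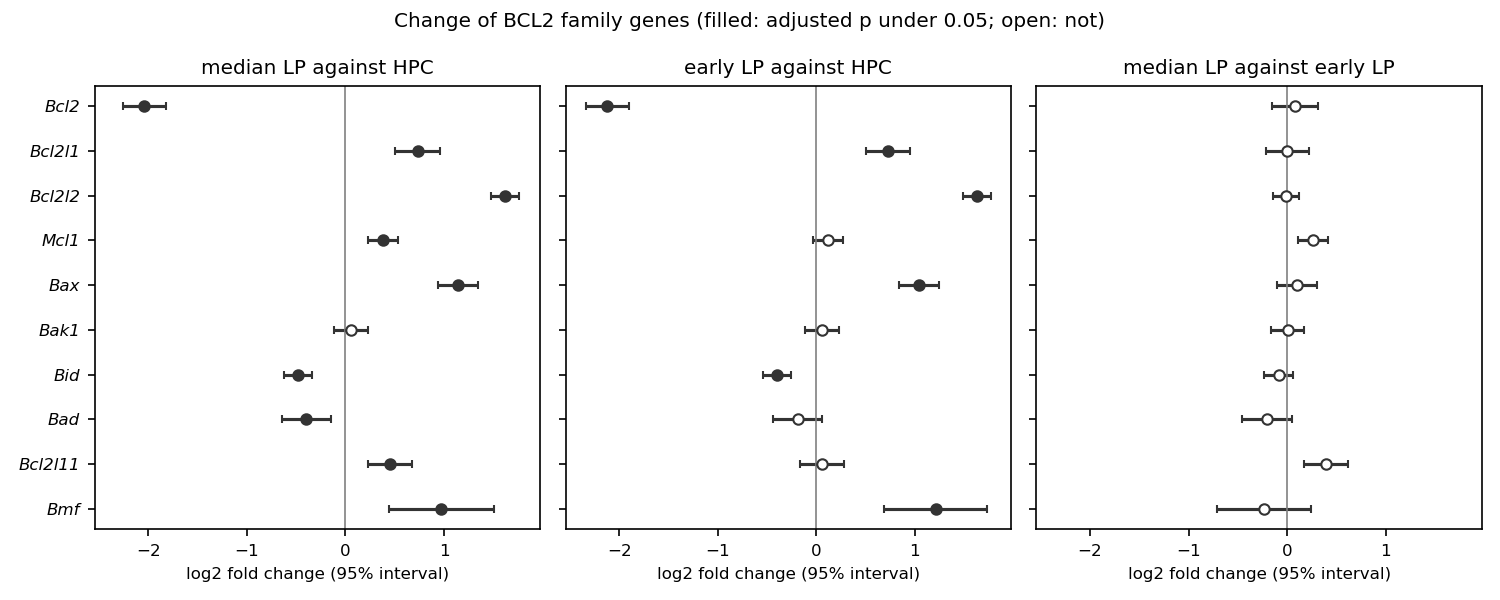
Log2 fold change (horizontal axis) with its 95% interval for each gene in median LP against HPC, early LP against HPC and median LP against early LP; filled points had an adjusted p under 0.05. Bcl2 lies near -2 in both comparisons with HPC, and in the comparison of phases all points are open, with Bcl2l11 and Mcl1 farthest to the right.

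The rest of the apoptosis pathway was read from lists of 82 further genes, of which 79 were in the table used and 73 were tested. In median LP against HPC, 30 were called higher and 21 lower, with 31 and 20 in early LP. That is 41.1% higher and 28.8% lower in median LP, beside 36.0% and 37.7% of all genes, and 42.5% higher and 27.4% lower in early LP, beside 35.3% and 37.9%. In median against early LP edgeR called 2 of 73, both higher, beside 2.48% of all genes, and 9 had an unadjusted p under 0.05, beside 16.5% of all genes.

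Other BCL2 family genes held several large rises. Of 12 tested, 8 were higher and 3 lower than in HPC in each LP group. Over all genes, 36.0% were higher and 37.7% lower in median LP, and 35.3% and 37.9% in early LP. The median log2 fold change of the 12 was 1.35 in median LP and 1.00 in early LP, beside -0.04 over all genes. Bcl2a1a, Bcl2a1b and Bcl2a1d, at 0.780 CPM or less in HPC, passed the filter on low counts only through LP. Bok, at 0.044 CPM or less in LP, passed only through HPC. The direction of these genes was set by how they entered the test. The counts and median given here include them, as do the counts over the whole pathway. Pmaip1, which encodes the BH3-only protein NOXA that neutralises MCL1, had 92.4, 71.0 and 51.3 CPM in median LP and 46.0, 39.2 and 48.0 CPM in early LP, against 6.17, 4.15 and 3.63 CPM in HPC. The LP libraries were all far above HPC, and median LP spread most. Its log2 fold change was 3.95 in median LP (SE 0.23, adjusted p = 2.06e-08) and 3.26 in early LP (SE 0.23, adjusted p = 1.18e-07). Bbc3, which encodes the p53-induced BH3-only protein PUMA, averaged 9.55 ± 1.61 CPM in median LP and 7.0 ± 0.553 CPM in early LP, against 3.76 ± 0.953 CPM in HPC, and was higher in both. The pro-survival gene Bcl2a1b averaged 9.16 ± 1.63 CPM in median LP and 6.70 ± 0.839 CPM in early LP, against 0.511 ± 0.313 CPM in HPC, with log2 fold changes of 4.13 and 3.68. Bcl2a1a and Bcl2a1d were also higher, at 2.84 and 2.22 in median LP and 2.44 and 1.82 in early LP. These copies are nearly identical, so how reads were divided among them is uncertain. Bnip3, a mitophagy receptor induced by low oxygen, was higher by 1.78 in median LP and by 1.12 in early LP than in HPC, and higher by 0.66 in median than in early LP (SE 0.10, adjusted p = 0.00539). Its means were 57.5 ± 8.46 CPM in median LP and 36.3 ± 2.69 CPM in early LP, against 16.8 ± 0.630 CPM in HPC. The 3 lower genes were Bcl2l13, Bcl2l12 and Bok. Bok, a BAX-like effector, had 1 recovered fragment over the 3 median LP libraries and 1 over the 3 early LP libraries, against 95 over the 3 HPC libraries. The ratio of HPC to LP was 97.4 for median LP, with an exact 95% counting interval of 17.1 to 3887, and 90.3 for early LP, with 15.8 to 3605. Interval limits cover counting error only.

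**Figure D5:**
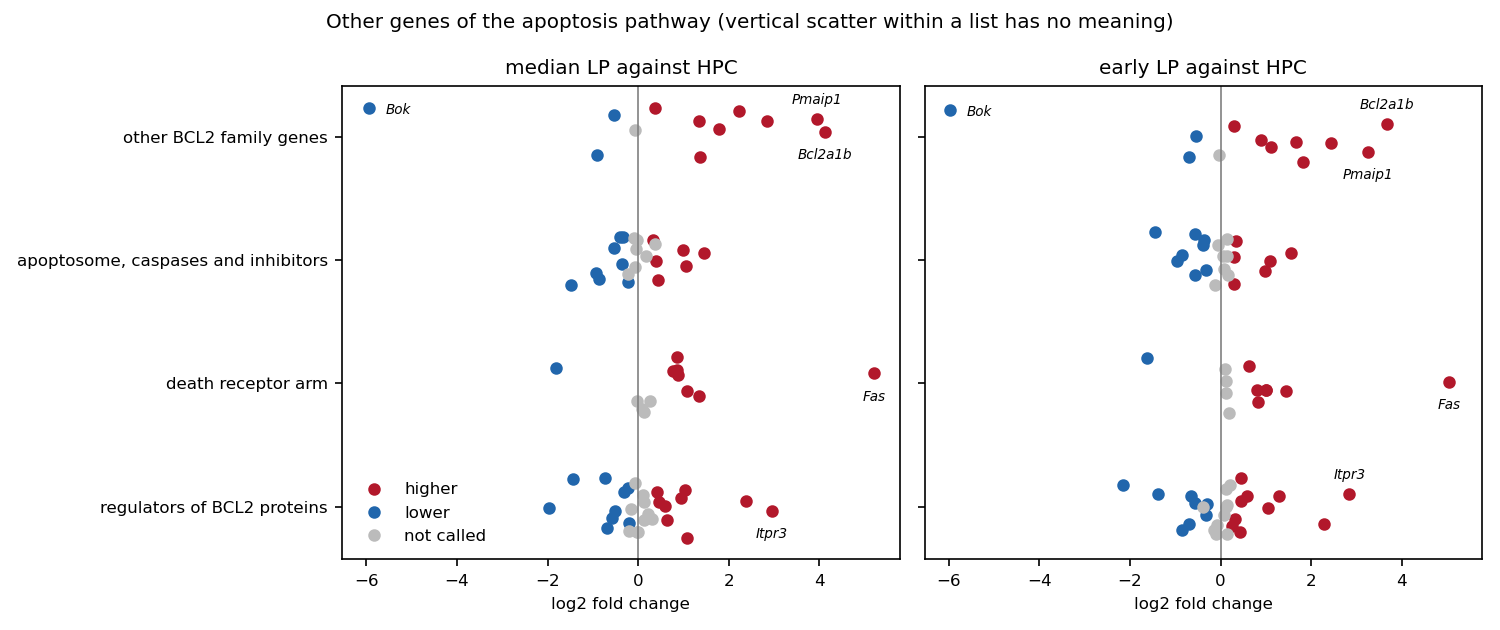
Log2 fold change (horizontal axis) of each tested gene in 4 lists of the apoptosis pathway, in median LP and early LP against HPC; colour gives the call and height within a list has no meaning. Fas, Pmaip1, Bcl2a1b and Itpr3 lie far to the right in both panels, and Bok lies far left at a fitted value that depends on a prior count, since LP had 1 fragment in each group.

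Downstream of mitochondria Apaf1 was higher and Parp1 lower. Of 21 tested genes of the apoptosome, caspases and their inhibitors, 6 were higher and 8 lower in each LP group. The shares of all genes were 36.0% higher and 37.7% lower in median LP, and 35.3% and 37.9% in early LP. The median log2 fold change of these 21 was -0.07 in median LP and 0.06 in early LP. Apaf1, the scaffold that binds released cytochrome c, averaged 220 CPM in median LP and 235 CPM in early LP, against 110 CPM in HPC (1.00 and 1.09 on the log2 scale). Parp1, a DNA repair enzyme, averaged 210 CPM in median LP and 212 CPM in early LP, against 382 CPM in HPC, and fell by 0.86 and by 0.85. Naip2, a cytosolic sensor of bacterial proteins from a family of similar genes, was higher by 1.45 and 1.56, with reads possibly shared with its relatives.

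In the death receptor arm, 7 of 12 tested genes were higher and 1 lower in each LP group. All genes had shares of 36.0% higher and 37.7% lower in median LP, and 35.3% and 37.9% in early LP. The median log2 fold change of the arm was 0.82 in median LP and 0.72 in early LP. Fas, the receptor of Fas ligand, averaged 25.4 ± 2.03 CPM in median LP and 22.7 ± 1.41 CPM in early LP, against 0.677 ± 0.178 CPM in HPC, with log2 fold changes of 5.21 (SE 0.15, adjusted p = 4.77e-11) and 5.05. Tnfrsf1a, the main TNF receptor, averaged 186 CPM in median LP and 200 CPM in early LP, against 73.2 CPM in HPC (1.34 and 1.45). Ripk1, the kinase at the receptor complex, was higher by 0.87 and 0.83, and Cyld, which removes ubiquitin chains from it, by 1.07 and 1.00. Cyld lies on chromosome 8, whose 706 tested genes had a median log2 fold change of 0.51 in median LP and 0.53 in early LP. The lower gene was Tnfsf10, which encodes TRAIL, at 4.48 CPM in median LP and 5.07 CPM in early LP, against 15.7 CPM in HPC. Bid, where this arm meets the mitochondrial one, was lower, as given above.

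Among 28 tested regulators of BCL2 proteins, 9 were higher and 9 lower in median LP, beside 36.0% and 37.7% of all genes. In early LP 10 were higher and 8 lower, beside 35.3% and 37.9%. The median log2 fold changes of the regulators were 0.05 and 0.11. Itpr3, a calcium channel of the endoplasmic reticulum that BCL2 binds, averaged 244 ± 37.5 CPM in median LP and 226 ± 16.5 CPM in early LP, against 31.6 ± 0.993 CPM in HPC (2.95 and 2.84). Mapk9, the JNK2 kinase, fell by 1.44 and by 1.38, at 47.0 CPM in median LP and 49.0 CPM in early LP, against 128 CPM in HPC. Maged1 was higher by 2.37 and 2.27. Tmbim6, BAX inhibitor-1 of the endoplasmic reticulum, averaged 871 CPM in median LP and 1010 CPM in early LP, against 411 CPM in HPC (1.08 and 1.30). It lies on chromosome 15, whose 498 tested genes had a median of 0.51 in median LP and 0.53 in early LP. Pim1, a survival kinase that phosphorylates BAD, averaged 115 ± 8.37 CPM in median LP and 89.6 ± 2.67 CPM in early LP, against 59.6 ± 6.67 CPM in HPC. It was the other gene called between the phases, at 0.36 (SE 0.08, adjusted p = 0.0482).

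By root mean square distance between log2 profiles centred on HPC, over the 10087 genes that averaged 5 CPM or more, the genes most like Bcl2 were Grlf1 (0.137), Tal1 (0.139) and Il27ra (0.145). Tal1, a transcription factor of blood stem and red cell precursors, averaged 43.8 CPM in median LP and 46.3 CPM in early LP, against 191 CPM in HPC. The genes most like Bcl2l11 were Pdik1l (0.0490), Nhlrc3 (0.0676) and Ahi1 (0.0919). Pdik1l averaged 50.3 CPM in median LP and 40.1 CPM in early LP, against 37.4 CPM in HPC. Likeness was chosen on these 9 libraries and is a description.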

How the data were processed

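RNA from sorted bone marrow cells was sequenced in 9 libraries, 3 each of median LP, early LP and HPC. Trizol extraction and TruSeq libraries are stated per the labels' protocols. The submitters' processing notes name TopHat2 2.0.6 and mm10. For the quantifying program, the annotation and strand use, the sources used here give no name. The table holds FPKM and estimated counts per transcript, made by the authors and deposited per the file headers. The deposited estimated counts carry the authors' scaling. Low values were whole multiples of a step of 0.867 to 1.23 for 87.0 to 88.9% of values up to 50 steps (tolerance 0.05), which gave recovered fragments.

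Transcripts were summed by gene, and the estimated counts rounded. edgeR 4.0.16 (R 4.3.3; TMM, filterByExpr, quasi-likelihood test, two-sided) fitted all 9 libraries in 1 model of 3 groups without covariates, with a common biological coefficient of variation of 9.81%. The fit was also run on simulated data. Far fewer genes were changed there than were called here against HPC, so that run does not test the TMM scaling in this setting. Genes were called at an adjusted p under 0.05 over 12837 tested genes, with 3700 left out. CPM serve for 1 gene across libraries, FPKM between genes. Summed levels, ratios between genes and single transcripts are also compared across groups in FPKM, which did not get the TMM scaling of the tests. Group differences can therefore differ between the scales. Bcl2l11 averaged 5.39 FPKM in early LP against 5.44 FPKM in HPC, but 27.2 CPM against 26.1 CPM. Alternatives used limma 3.58.1, DESeq2 1.42.0 and other settings. Sequences came from RefSeq (GRCm38.p6) and GENCODE M21 (GRCm38), and all 10 members matched RefSeq promoter windows, 16 in all. These motifs were searched on both strands, with their share of all windows: AGGTCA 14.0%, TTGCNNAA 9.57%, CACGTG 6.04%, GGGCGG 33.0%, CCAAT 33.8%, TATAAA 12.3%, GAGGAAGT (PU.1) 2.45% and the NF-kB motif 1.21%.

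The named genes were all 10 members, the 4 genes of each pathway list with the smallest adjusted p per comparison, Bcl2a1 copies, Bbc3, Pmaip1 and Bok, marker lists by counts and summed level, and the 3 genes nearest to Bcl2 and to Bcl2l11. Tnfsf10, Bcl2l12 and other genes outside that rule were named after their values were seen, and 1 gene that the rule names is not reported here. The members and lists were chosen with earlier results of these data known.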

Additional observations from a re-analysis of the deposited data

How the results depend on the processing

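The members called against HPC kept their direction under all gene-level alternatives run. Their number stayed at 8 or 9 of 10 in median LP and at 5 or 6 of 10 in early LP, 1 fewer where the limma filter or the highest transcript removed a call. The comparison of phases depended on the setting. Against 0 members called, 2 were called (Mcl1 and Bcl2l11) with only the 2 groups compared (Mcl1 adjusted p = 0.0470, Bcl2l11 0.0107), with a transcript length covariate (0.0184 and 0.00416) and with DESeq2. Leaving out 1 library gave 0 to 2, with 2 without HPC 3. With the replicate block, which treats equal replicate numbers as pairs, 0 members were called (Mcl1 0.117, Bcl2l11 0.0807). Same-numbered libraries correlated at -0.21 to 0.12 in their deviations, and libraries with different numbers at -0.22 to 0.22. With 3 libraries per group, these values cannot decide whether equal numbers mark pairs. Of the other apoptosis genes, 73 of which were tested in the main fit, 2 were called between phases. The count was 1 with RLE scaling, upper quartile scaling, the replicate block, the highest transcript and 3 limma settings, 4 with only the 2 groups, 8 with the length covariate, and 1 to 3 leaving out a library. Over the whole table, 190 of 12837 tested genes were higher and 128 lower in median LP. With the length covariate the counts were 723 and 560 of 12837, and with only the 2 groups 362 and 243 of 11906. DESeq2 gave 313 and 245 of 13971 genes with an adjusted p. With the block the counts were 130 and 62 of 12837, and with the highest transcript 137 and 75 of 12818. Without HPC 3 they were 391 and 296 of 12962. Leaving out another library gave as few as 66 and 39. In limma on log2(FPKM + 0.1) the counts were 97 and 99 of 11905. The numbers of members and other apoptosis genes called in a setting are to be read beside these counts. Upper quartile scaling moved the median of all genes against HPC to -0.12 and -0.11. The short Bcl2 transcript differed by 0.22 in early LP against HPC (not called), opposite in sign to the gene. The cause of these differences was not tested. Bmf rested on 17.1 to 23.4 estimated counts per HPC library and Bok on 1 fragment in each LP group, so depth limits both.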

Other observations

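Genes that act above the BCL2 family also differed, chosen for mention after their values were seen. Trp53, whose protein induces Bax, Pmaip1 and Bbc3, averaged 138 CPM in median LP and 148 CPM in early LP, against 231 CPM in HPC, and fell by 0.74 and by 0.64 on the log2 scale (adjusted p = 1.06e-06 and 3.50e-06, edgeR). Mdm2, the p53 inhibitor and target, averaged 77.0 and 76.9 CPM in the LP groups, against 70.1 CPM in HPC, and was not called. Foxo3, a factor that induces Bcl2l11 when growth factors are withdrawn, averaged 24.4 CPM in median LP and 21.7 CPM in early LP, against 39.3 CPM in HPC, and fell by 0.69 and by 0.86. Foxo1 averaged 2.49 CPM in median LP and 2.19 CPM in early LP, against 9.72 CPM in HPC, and fell by 1.96 and by 2.15. Ywhaz, a 14-3-3 protein that holds phosphorylated BAD, averaged 764 CPM in median LP and 771 CPM in early LP, against 372 CPM in HPC (1.04 and 1.05). It lies on chromosome 15, whose tested genes had a median of 0.51 in median LP and 0.53 in early LP. Dynll1, the dynein light chain that binds BIM, fell by 0.23 and by 0.31, and Dynll2, which binds BMF, was higher by 0.45 and 0.42.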
